A study of Homo sapiens with 6 samples.

Results

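The annexins are a gene family of calcium-regulated proteins, and 10 of its genes (ANXA1 to ANXA7, ANXA9, ANXA10 and ANXA11) were followed among the 35544 loci of a deposited expression table. Each of the 10 symbols stood on 1 row that carried no other gene name. PolyA RNA was sequenced from SiHa, an established human cervical carcinoma line, in 6 libraries. In 3 of them the cells had received an empty vector plasmid, and in the other 3 a plasmid for the circular RNA hsa_circ_0005358, with collection at 72 h after transfection in both groups. The labels spell the circular RNA with differing digits, which were taken to mean the same molecule, and its own level was not analysed here because a circle has no polyA tail. They number the libraries without saying that these came from separate cultures, so the p-values reflect only how these libraries vary, which may be technical.

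An annexin binds membranes that hold acidic phospholipids, such as phosphatidylserine, when calcium rises, through a repeated core domain that the family shares, while the variable amino-terminal tail carries the sites for partner proteins. Annexin A2 binds the S100 protein p11 (S100A10) and annexin A1 binds S100A11. Family members take part in vesicle traffic, in plasma membrane repair and in the organisation of cortical actin, and annexin A5 is widely used as a probe for phosphatidylserine on dying cells. In the deposited annotation, all 10 rows carried the terms calcium ion binding and calcium-dependent phospholipid binding, 7 carried calcium-dependent protein binding, and 5 carried phospholipase inhibitor activity.

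Levels are given as FPKM, fragments corrected for the length of the transcript and the size of the library. The main test applied no further scaling between libraries, although their FPKM sums differed. All loci summed to 138864 to 141833 FPKM with vector and to 141895 to 145278 FPKM with circ_0005358. The value of 1 fragment implied a depth of 71.1% of the deepest library for circ_0005358 replicate 2 and of 93.6% to 100% for the other 5. Loci above 0 FPKM numbered 27803 in vector replicate 3 and 23227 to 23834 in the other 5 libraries. The epithelial markers were uneven: KRT7, KRT8, KRT17 and KRT18 stood at 74.4 FPKM or more in every library. EPCAM was low at 1.04 to 2.52 FPKM, as was KRT19 at 1.19 to 2.17 FPKM, and the squamous markers KRT5 and TP63 stayed under 0.26 FPKM. The 8 epithelial markers summed to 1253 to 1323 FPKM with vector and to 617 to 695 FPKM with circ_0005358. Most of that difference was KRT17, with means of 625 FPKM with vector and 205 FPKM with circ_0005358. The means of KRT7 were 348 and 269 FPKM, those of KRT8 180 and 85.1 FPKM and those of KRT18 142 and 94.9 FPKM. The endothelial markers with a row summed to at most 0.692 FPKM, and leukocyte markers to 10.4 to 13.3 FPKM with vector and 1.56 to 16.3 FPKM with circ_0005358, nearly all of it CD14. Fibroblast markers summed to 6.91 to 10.2 FPKM with vector and to 1.63 to 2.10 FPKM with circ_0005358, with LUM at 6.35 to 9.21 FPKM and 1.11 to 1.69 FPKM, and with DCN and COL1A1 under 1 FPKM in every library. The part of these marker differences in the annexin results was not tested.

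The family was led by ANXA5 and spanned levels from under 0.1 FPKM to above 180 FPKM in the same cells. ANXA5 averaged 182 FPKM over the 6 libraries, ANXA2 84.3 FPKM and ANXA1 62.7 FPKM. Next came ANXA7 at 27.7 FPKM, ANXA3 at 18.9 FPKM and ANXA11 at 12.9 FPKM, followed by ANXA6 at 5.82 FPKM and ANXA4 at 5.31 FPKM. ANXA9 and ANXA10 stood at 0.484 and 0.0466 FPKM, below the filter for testing. Ranges over all libraries overlapped for 3 neighbouring pairs in this order (ANXA2 and ANXA1, ANXA3 and ANXA11, ANXA6 and ANXA4), although ANXA2 was above ANXA1 in all 6 libraries. The 10 genes summed to 386 ± 5.50 FPKM with vector and to 415 ± 19.2 FPKM with circ_0005358 (SD, n = 3 each). The highest vector library, at 389.4 FPKM, lay below the lowest library with the circular RNA plasmid, at 392.8 FPKM, but as a share of all FPKM in the library the groups overlapped, at 0.272% to 0.280% and 0.270% to 0.299%.

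**Figure D1:**
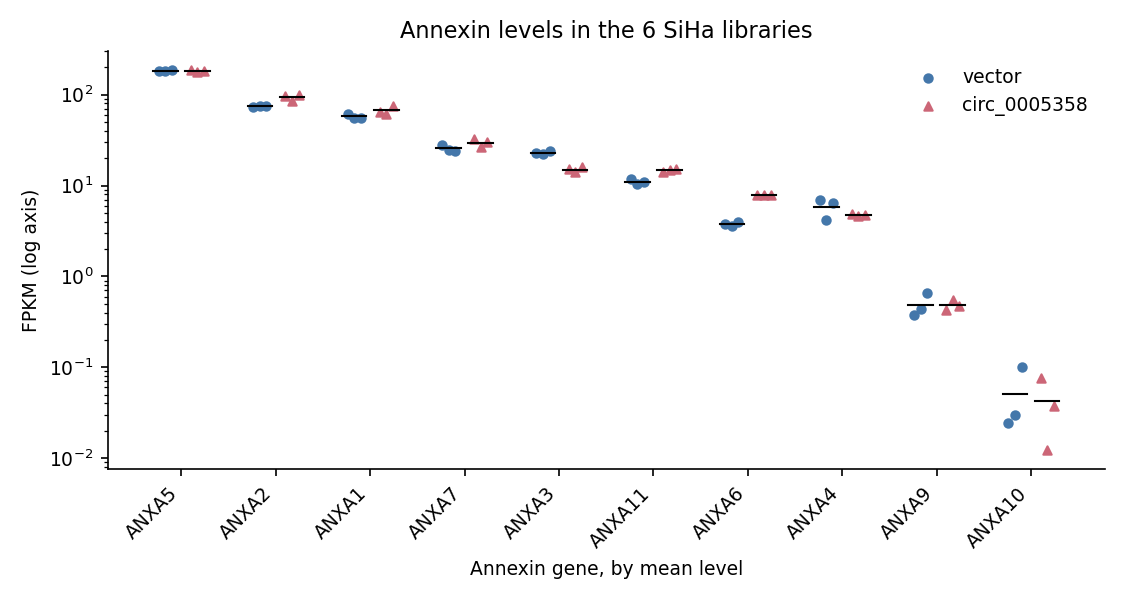
FPKM of the 10 annexin genes on a log axis, ordered by mean level. Circles are the 3 vector libraries, triangles the 3 circ_0005358 libraries and black lines the group means. The groups separate for ANXA6, ANXA3, ANXA11 and ANXA2, while ANXA5 lies between 177 and 188 FPKM in all 6 libraries.

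Between the groups, 4 of the 8 annexins tested passed the threshold (limma, Benjamini-Hochberg adjusted p under 0.05 over 10295 loci): ANXA6, ANXA11 and ANXA2 rose with circ_0005358 and ANXA3 fell. Over all tested loci 11.4% passed, 6.41% higher and 4.96% lower. The median log2 fold change of the 8 annexins was 0.21, against 0.02 over all tested loci, on the log2(FPKM + 1) scale that understates changes of low genes. The groups did not overlap for the same 4 annexins, 3 higher and 1 lower, against 35.8% of all tested loci (19.8% higher and 15.9% lower). In these bulk samples, fewer cells of a type and less RNA per cell cannot be told apart.

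ANXA6, which encodes a large annexin with a duplicated core that tethers endosomes and signalling proteins to membranes, had the largest fold change among the 8. It gave 3.73, 3.62 and 3.99 FPKM in the vector libraries, against 7.81, 7.93 and 7.84 FPKM under circ_0005358. The lowest library with the circular RNA plasmid lay far above the highest vector library, and the spread within each group was small. The means were 3.78 ± 0.189 and 7.86 ± 0.0637 FPKM (SD, n = 3 each), a ratio of 2.08. The log2 fold change was 0.89 (standard error 0.057, 95% interval 0.75 to 1.03, limma adjusted p = 0.0011). The call was kept when any single library was left out, with adjusted p from 0.00661 to 0.00989, and was lost without replicate 3 of both groups (0.0552). ANXA6 (ENSG00000197043) occupies bases 151100712 to 151157882 of chromosome 5 (minus strand, GRCh38, GENCODE 29).

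ANXA3, whose product annexin A3 is found on granule and vesicle membranes, moved the other way. Its vector libraries stood at 22.5, 22.4 and 23.9 FPKM and those with circ_0005358 at 15.1, 13.9 and 15.8 FPKM. All 3 libraries with the circular RNA plasmid were below all 3 vector libraries. The means were 22.9 ± 0.856 and 14.95 ± 0.953 FPKM (SD, n = 3 each), a ratio of 0.652. The log2 fold change was -0.59 (standard error 0.066, 95% interval -0.75 to -0.42, limma adjusted p = 0.00582), and it kept its call with any single library left out, with adjusted p from 0.0169 to 0.0306. Without both vector replicate 3 and circ_0005358 replicate 2 the adjusted p was 0.0602, and without replicate 3 of both groups it was 0.0891. ANXA3 (ENSG00000138772) occupies bases 78551519 to 78610451 of chromosome 4 (plus strand).

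ANXA11, which encodes an annexin with a long proline-rich tail that links RNA granules to lysosomes, rose by a smaller amount. It gave 11.8, 10.5 and 10.9 FPKM in the vector libraries, against 14.2, 14.9 and 15.1 FPKM under circ_0005358. The groups did not overlap. The ratio of the means was 1.33, and the log2 fold change was 0.38 (standard error 0.064, 95% interval 0.22 to 0.54, limma adjusted p = 0.0208). Leaving out vector replicate 2 or 3 ended the call (adjusted p = 0.074 and 0.0733), as did leaving out circ_0005358 replicate 2 or 3 (0.0628 and 0.0788). ANXA11 (ENSG00000122359) occupies bases 80150889 to 80205572 of chromosome 10 (minus strand).

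ANXA2, which encodes the membrane partner of S100A10 and a cell-surface binding site for plasminogen, passed the threshold narrowly. It gave 73.7, 75.4 and 75.9 FPKM in the vector libraries, against 97.2, 85.2 and 98.4 FPKM under circ_0005358. The vector libraries lay close together, and circ_0005358 replicate 2 was the nearest to them. The ratio of the means was 1.25, and the log2 fold change was 0.31 (standard error 0.070, 95% interval 0.14 to 0.49, limma adjusted p = 0.0467). Without circ_0005358 replicate 2 the adjusted p was 0.0199. Leaving out any of the 3 vector libraries ended the call (adjusted p = 0.137, 0.135 and 0.114), as did leaving out circ_0005358 replicate 1 or 3 (0.115 and 0.132). It was also lost under each of 3 other scalings of the libraries, with adjusted p from 0.0724 to 0.0798, and the direction was upward in all of these. ANXA2 (ENSG00000182718) occupies bases 60347134 to 60402883 of chromosome 15 (minus strand).

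Processed copies of ANXA2 elsewhere in the genome bear on its value. The pseudogene ANXA2P2 shares 59.2% of its stretches of 50 bases with ANXA2 transcripts in GENCODE 29, against 8.10% for ANXA2P1, and fragments from shared stretches cannot be told apart. ANXA2P2 was listed at 3.28 FPKM in vector replicate 2 and at 0 in the other 5 libraries. Adding the pseudogene rows to ANXA2 gave a log2 fold change of 0.29 and ended the call (limma adjusted p = 0.0614). No stretch of 50 bases was shared between the transcripts of any pair of the 10 annexins.

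**Figure D2:**
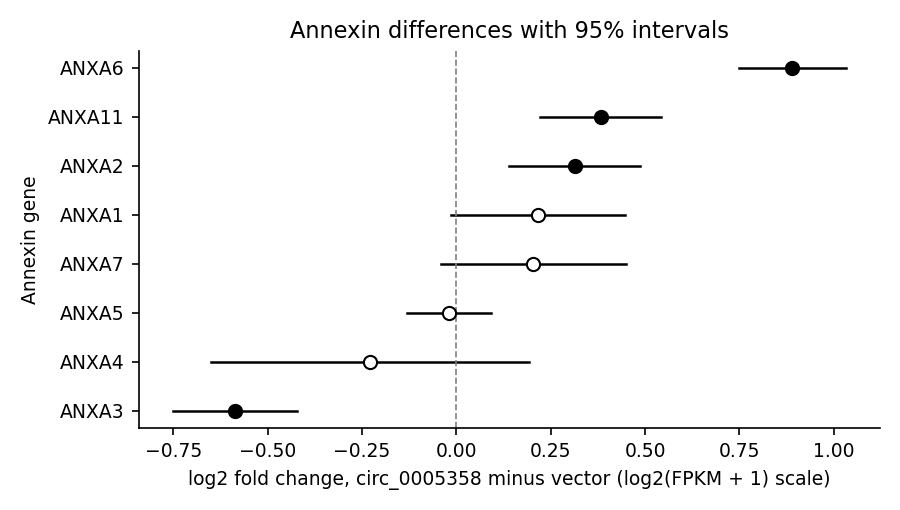
Log2 fold change of the 8 tested annexins, circ_0005358 minus vector, on the log2(FPKM + 1) scale. Points are estimates from 3 libraries a group, lines are 95% intervals from limma and filled points passed the adjusted threshold of 0.05. ANXA6 stands at 0.89 and ANXA3 at -0.59, and the interval of ANXA5 runs from -0.13 to 0.09.

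The most abundant annexin, ANXA5, gave nearly the same value in every library. It gave 180, 183 and 188 FPKM in the vector libraries, against 185, 177 and 180 FPKM under circ_0005358, and the groups overlapped. The log2 fold change was -0.02 with a 95% interval from -0.13 to 0.09 (limma adjusted p = 0.821).

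ANXA1, the glucocorticoid-induced annexin that acts as an anti-inflammatory ligand outside the cell, missed the threshold. It gave 62.0, 55.9 and 55.6 FPKM in the vector libraries, against 65.1, 62.0 and 75.5 FPKM under circ_0005358. The groups met at 62.0 FPKM. The log2 fold change was 0.22, with a 95% interval from -0.01 to 0.45 (limma adjusted p = 0.205). ANXA7, which encodes a calcium-dependent membrane fusion protein, also failed the test, at 28.2, 24.6 and 24.2 FPKM with vector and 32.2, 26.6 and 30.3 FPKM with circ_0005358. Its log2 fold change was 0.20, with a 95% interval from -0.04 to 0.45 (limma adjusted p = 0.255). These intervals include changes as large as that of ANXA11.

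ANXA4, an epithelial annexin of the cell cortex, varied among the vector libraries. It gave 7.005, 4.22 and 6.34 FPKM in the vector libraries, against 4.91, 4.60 and 4.76 FPKM under circ_0005358. Vector replicate 2 lay below all 3 libraries with the circular RNA plasmid and the other vector libraries lay above them. The log2 fold change was -0.23, with a 95% interval from -0.65 to 0.19 (limma adjusted p = 0.448). Without vector replicate 2 it was -0.41 (limma adjusted p = 0.0625). ANXA4 overlaps AAK1 on the opposite strand, and whether the counting used strand is not given in the sources used here. AAK1 has its own row, with means of 2.13 and 2.01 FPKM.

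ANXA9 and ANXA10 were the lowest of the 10 genes. ANXA9, an annexin that lacks the usual calcium sites, gave 0.374, 0.44 and 0.653 FPKM in the vector libraries, against 0.422, 0.545 and 0.47 FPKM under circ_0005358, with overlapping groups (exact two-sided permutation p = 0.9). ANXA10, whose expression is typical of the stomach lining, reached 0.0996 FPKM at most, in vector replicate 3 (exact two-sided permutation p = 0.7). With 3 libraries against 3, the smallest p this test allows is 0.1. Outside the 10 genes, the near-identical ANXA8 and ANXA8L1, which share 47.0% of the 50-base stretches of ANXA8, stood at 2.53 to 3.17 FPKM and at 1.16 to 1.95 FPKM, the latter on a row that joins 3 names. Neither passed the test (limma adjusted p = 0.266 and 0.346), and ANXA13 reached at most 0.0776 FPKM, in vector replicate 3.

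Within a library, the ratio of 2 annexins does not depend on how the library was scaled, and these ratios show how the rank order of the family differed between the groups. ANXA3 was above ANXA11 by ratios of 1.91, 2.13 and 2.20 in the vector libraries. In the libraries with circ_0005358 the ratios were 1.07, 0.937 and 1.05, so the genes stood at about the same level. ANXA6 was below ANXA4 in every vector library, with ratios of 0.532, 0.859 and 0.629, and above it in every library with the circular RNA plasmid, with ratios of 1.59, 1.73 and 1.65. The ratio of ANXA2 to ANXA5 was 0.409 ± 0.00441 with vector and 0.517 ± 0.0329 with circ_0005358 (SD, n = 3 each). These pairs were chosen after the values were seen and were not tested.

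**Figure D3:**
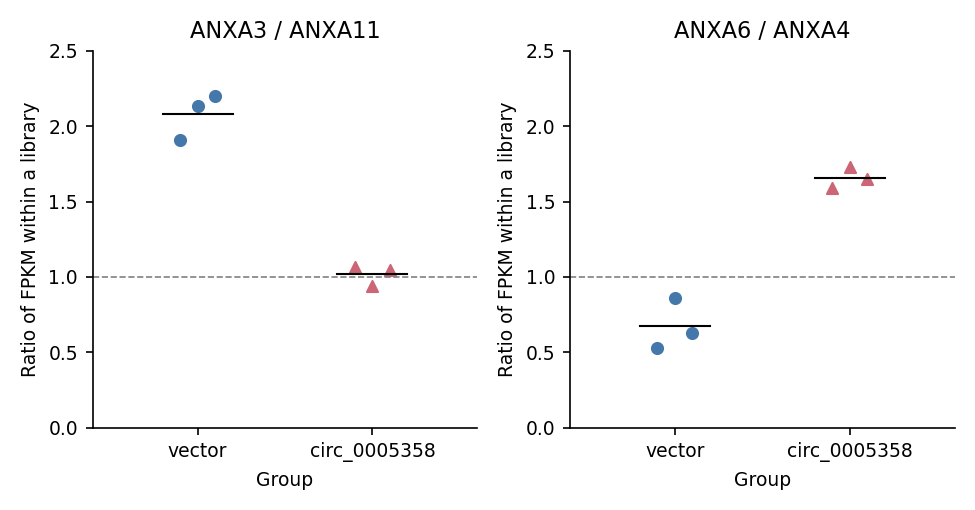
Ratio of FPKM between annexin genes within each library, for ANXA3 over ANXA11 and ANXA6 over ANXA4. Points are libraries, black lines are group means and the dashed line marks equal levels. The ANXA3 ratio is near 2.08 with vector and near 1.02 with circ_0005358, and the ANXA6 ratio lies below 1 in the vector libraries and above 1.5 in the others.

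Across the 6 libraries ANXA6 and ANXA11 followed each other (Pearson correlation 0.963 of log2 values), and ANXA3 ran against both (-0.973 with ANXA6 and -0.945 with ANXA11). These correlations are descriptions over 6 libraries that share the group difference. The tested loci most like ANXA6 were GLI1, a hedgehog pathway transcription factor, MLXIPL, a glucose-responsive transcription factor, and PAPPA, a protease of growth factor binding proteins, with correlations of 0.9994 to 0.9998. GLI1 went from a mean of 0.151 FPKM to 14.9 FPKM and PAPPA from 0.346 to 5.19 FPKM. Both met the filter only through the group where they were higher, so a high correlation with a gene that separates the groups was nearly fixed for them. MLXIPL went from a mean of 1.25 FPKM to 4.48 FPKM. Most like ANXA3 were the scaffold gene HOMER2, the membrane fusion gene STXBP3 and the kinase gene WNK1 (0.996 to 0.998). Most like ANXA11 were the RNA-binding protein gene HNRNPDL, SNAI1, which encodes the repressor Snail, and the sialyltransferase gene ST3GAL1 (0.995 to 0.999). SNAI1 went from a mean of 6.19 FPKM to 10.9 FPKM. Most like ANXA2 were the kinase gene PRKCD, HTATIP2 and the chaperone gene HSPA5 (0.991 to 0.994). HOMER2, at means of 1.17 and 0.756 FPKM, likewise lay below 1 FPKM on average in the group where it was lower. Of the 9254 other tested loci with a single gene name, between 141 and 477 correlated above 0.95 with each of these annexins.

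The annexin genes sit on different chromosomes, except that ANXA3, ANXA5 and ANXA10 share chromosome 4 and ANXA7 and ANXA11 share chromosome 10. Each tested annexin was set beside the 25 tested loci on either side of it in GENCODE 29 order. The 50 neighbours of ANXA6 had a median log2 fold change of -0.01, and 2 of them had a higher value than ANXA6 itself. The nearest neighbours of ANXA6 were TNIP1, a binding protein of an NF-kB regulator, which fell from 6.63 to 4.66 FPKM (limma adjusted p = 0.0339), and CCDC69, at 1.43 and 1.80 FPKM (limma adjusted p = 0.185). For ANXA3 the neighbours' median was -0.17, and 8 of 50 had a lower value. The neighbours of ANXA2 had a median of 0.18, with 11 called higher and 2 called lower, and 14 of 50 were higher than ANXA2. Around ANXA7 and ANXA11, which share 24 neighbours, the medians were 0.28 and 0.28, with 12 and 14 neighbours called higher and 1 called lower in each case. Over all tested loci, 6.41% were called higher and 4.96% lower. The value of ANXA11, 0.38, was exceeded by 21 of its 50 neighbours and that of ANXA7, 0.20, by 30.

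**Figure D4:**
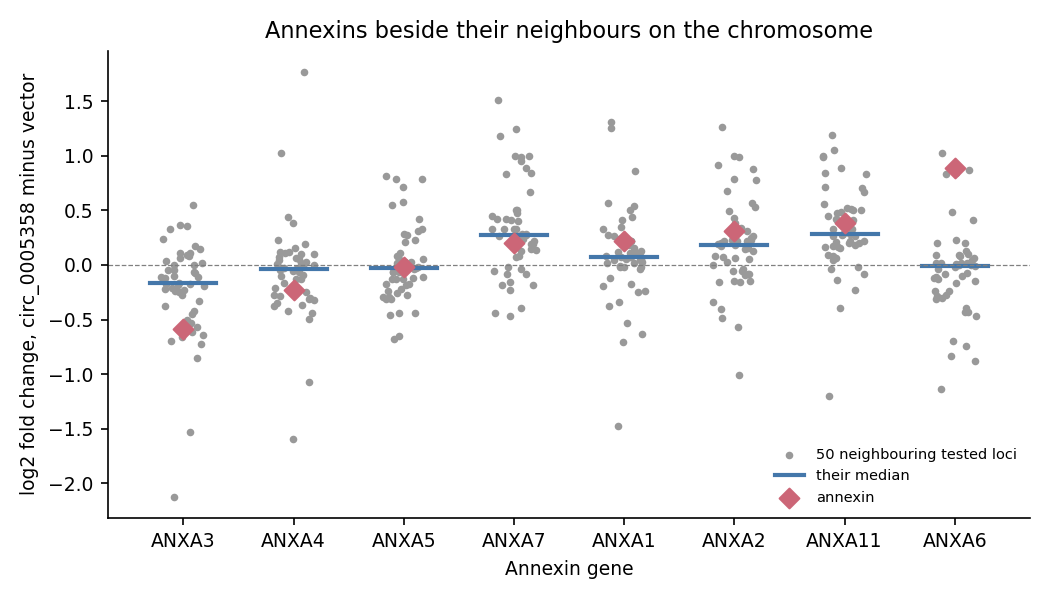
Log2 fold change, circ_0005358 minus vector, of each tested annexin (diamonds) and of the 50 tested loci nearest to it along the chromosome (grey points, with their median as a line). ANXA6 at 0.89 lies far above a neighbourhood centred at -0.01, while ANXA11 and ANXA7 lie near neighbourhood medians of 0.28.

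The 250 bases before a RefSeq transcription start are shown for the annexins that passed the test. Sequences are from RefSeq on GRCh38.p14, 5′ to 3′ on the strand of the gene. All 10 annexins had a window, and where a gene has several starts the one nearest to its start in GENCODE 29 is shown. By the GENCODE 29 positions, the windows of ANXA3 and ANXA2 lie wholly inside the gene, and those of ANXA6 and ANXA11 lie partly inside it. Capitals mark matches on either strand to the GC box GGGCGG, the box CCAAT, the TATA box TATAAA, the AP-1 site TGANTCA or the GLI site GACCACCCA, and matches may overlap. The windows are chr5:151157780-151158029 on the minus strand for ANXA6, chr10:80205538-80205787 on the minus strand for ANXA11, chr15:60397987-60398236 on the minus strand for ANXA2 and chr4:78551520-78551769 on the plus strand for ANXA3.
ANXA6: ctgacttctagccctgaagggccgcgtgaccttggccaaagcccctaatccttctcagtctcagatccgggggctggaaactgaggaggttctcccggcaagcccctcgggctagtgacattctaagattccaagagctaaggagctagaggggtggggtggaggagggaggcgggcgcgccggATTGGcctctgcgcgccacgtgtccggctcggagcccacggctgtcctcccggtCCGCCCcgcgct
ANXA11: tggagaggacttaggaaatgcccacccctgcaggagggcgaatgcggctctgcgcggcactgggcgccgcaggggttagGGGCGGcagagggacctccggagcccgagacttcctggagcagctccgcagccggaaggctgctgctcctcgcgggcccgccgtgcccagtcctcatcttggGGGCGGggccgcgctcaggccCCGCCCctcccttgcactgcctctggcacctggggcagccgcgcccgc
ANXA2: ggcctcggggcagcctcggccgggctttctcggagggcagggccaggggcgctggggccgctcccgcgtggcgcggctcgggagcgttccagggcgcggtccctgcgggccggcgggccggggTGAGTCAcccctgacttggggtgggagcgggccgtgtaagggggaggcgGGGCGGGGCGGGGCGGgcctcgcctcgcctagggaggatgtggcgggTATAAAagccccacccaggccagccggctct
ANXA3: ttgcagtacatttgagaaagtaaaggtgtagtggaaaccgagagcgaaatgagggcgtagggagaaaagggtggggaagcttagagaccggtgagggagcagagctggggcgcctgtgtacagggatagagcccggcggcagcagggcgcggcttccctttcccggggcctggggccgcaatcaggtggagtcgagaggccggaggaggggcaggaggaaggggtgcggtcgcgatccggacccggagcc

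The ANXA6 window held 1 GC box and 1 CCAAT box, that of ANXA11 held 3 GC boxes, and that of ANXA2 held 3 overlapping GC boxes, 1 TATA box and 1 AP-1 site. The ANXA3 window held none of the 5 motifs. Among 35116 promoter windows of the same length, 42.6% held a GC box, 32.0% a CCAAT box, 10.7% a TATA box, 6.57% an AP-1 site and 0.199% a GLI site, so the first 2 matches are common. The G and C content was 65.6%, 73.6%, 78% and 64% in the windows of ANXA6, ANXA11, ANXA2 and ANXA3, against a median of 58% over all windows.

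Genes of annexin partners and pathways were read from the same test: 63 genes in 6 lists, of which 42 were tested, 15 lay below the filter and 6 stood only on rows that join several genes. Of the 42, 3 rose and 5 fell, which is 19% against 11.4% of all tested loci, and their median log2 fold change was -0.06.

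Among S100 partners, 0 of 4 tested genes passed the threshold, against 11.4% of all tested loci. S100A10, the partner of annexin A2, gave 83.9, 43.2 and 79.4 FPKM in the vector libraries, against 44.5, 97.7 and 43.2 FPKM under circ_0005358. These values formed a low set near 43 to 45 FPKM and a high set near 79 to 98 FPKM, with libraries of both groups in each. The log2 fold change was -0.20, and its 95% interval ran from -1.24 to 0.84 (limma adjusted p = 0.799). S100A11, the partner of annexin A1, gave 237, 192 and 183 FPKM in the vector libraries, against 194, 192 and 215 FPKM under circ_0005358 (log2 fold change -0.02, limma adjusted p = 0.931). S100A6 and S100A4 were lower under circ_0005358 without overlap, as were 15.9% of all tested loci, with log2 fold changes of -0.27 and -0.52 that missed the threshold (limma adjusted p = 0.0564 and 0.0851).

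Of 9 other binding partners tested, 1 rose and 1 fell (22.2%, against 11.4% of all tested loci). CTSB, which encodes cathepsin B, a lysosomal protease whose precursor binds the annexin A2 complex, measured 16.5, 16.6 and 14.05 FPKM in the vector libraries, against 20.1, 20.996 and 23.9 FPKM under circ_0005358 (log2 fold change 0.44, limma adjusted p = 0.0469). PLA2G4A, which encodes the cytosolic phospholipase A2 that annexin A1 inhibits, fell from 6.54 to 5.09 FPKM (log2 fold change -0.31, limma adjusted p = 0.0364). Both calls were lost when any single library was left out, with adjusted p from 0.0781 to 0.116 for CTSB and from 0.0629 to 0.12 for PLA2G4A. The annexin A1 receptor genes FPR1, FPR2 and FPR3 and the gene ANXA2R were below the filter. FPR1 reached at most 0.347 FPKM, in vector replicate 3, and ANXA2R was listed at 0 in every library.

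In the plasmin system, whose activation at the cell surface involves annexin A2, 1 of 5 tested genes rose and 1 fell (40%, against 11.4% of all tested loci). SERPINE2, an inhibitor of thrombin and urokinase, gave 3.75, 3.65 and 4.28 FPKM in the vector libraries, against 6.48, 6.10 and 5.93 FPKM under circ_0005358 (log2 fold change 0.55, limma adjusted p = 0.0107, and 0.0506 without vector replicate 1). PLAUR, which encodes the urokinase receptor, fell from 6.99 to 5.21 FPKM (log2 fold change -0.37, limma adjusted p = 0.0473). The PLAUR call was kept without circ_0005358 replicate 3 (adjusted p = 0.039) and lost when any of the other 5 libraries was left out (0.103 to 0.138). The genes of plasminogen and its activators, PLG, PLAT and PLAU, stood at 0.242 FPKM or less in every library, a maximum reached by PLAU in vector replicate 3.

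Among plasma membrane repair genes, 2 of 16 tested fell and 0 rose, which is 12.5% called and close to the 11.4% of all tested loci. MYOF, which encodes myoferlin, a calcium-binding membrane fusion protein, measured 57.5, 62.3 and 62.7 FPKM in the vector libraries, against 42.97, 42.1 and 43.9 FPKM under circ_0005358. The groups were well apart, at a log2 difference of -0.49 (limma adjusted p = 0.0057, standard error 0.055) that kept its call with any single library left out (0.0164 to 0.0335). CHMP4C, a subunit gene of the membrane-severing ESCRT-III complex, fell from 3.85 to 2.73 FPKM (log2 fold change -0.38, limma adjusted p = 0.0148). That call was kept without circ_0005358 replicate 2 (adjusted p = 0.0377) and lost without any of the other 5 libraries (0.0501 to 0.0632). PTRF, the caveolar coat gene also called CAVIN1, had the most negative value of the list and no call (limma adjusted p = 0.374). It gave 95.1, 18.0 and 98.8 FPKM in the vector libraries, against 0.697, 1.77 and 112 FPKM under circ_0005358, so its libraries differed widely within both groups. PTRF was singled out after its values were seen.

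Among 8 tested genes that move phosphatidylserine between membrane leaflets, 1 rose and 1 fell (25%, against 11.4% of all tested loci). PLSCR1, which encodes phospholipid scramblase 1, fell from 10.7 to 7.29 FPKM (log2 fold change -0.51, limma adjusted p = 0.0264). The PLSCR1 call was kept without circ_0005358 replicate 2 (adjusted p = 0.024) and lost without any of the other 5 (0.0502 to 0.0908).

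**Figure D5:**
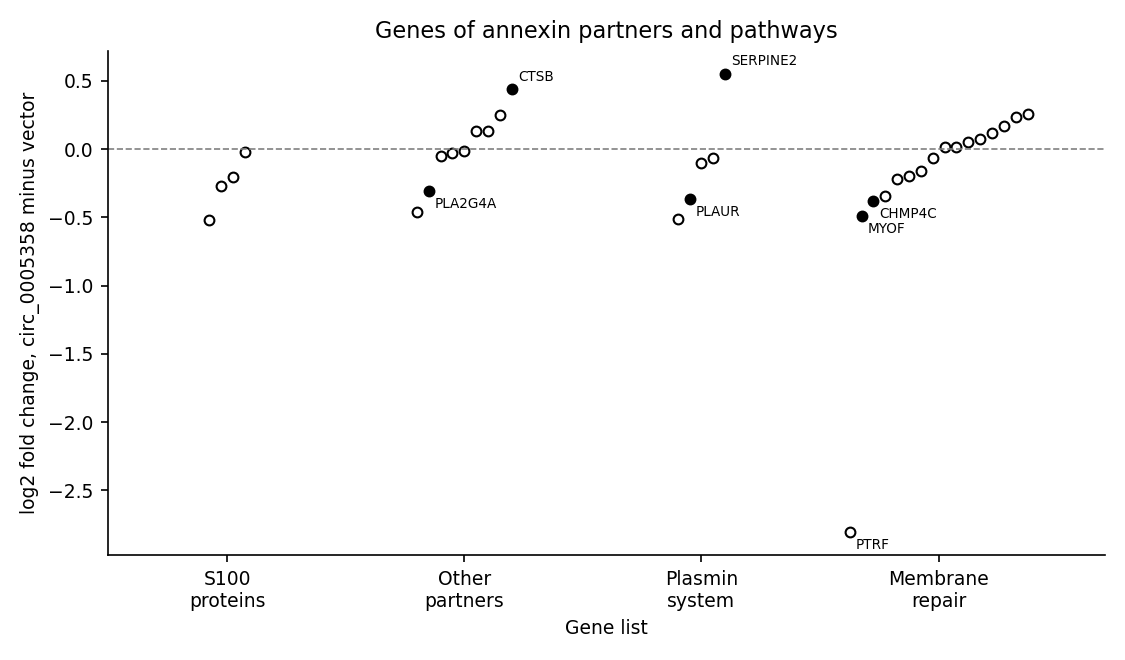
Log2 fold change, circ_0005358 minus vector, of the tested genes in 4 of the partner and pathway lists; each point is a gene and filled points passed the adjusted threshold of 0.05. CTSB and SERPINE2 rose in lists where PLA2G4A and PLAUR fell. MYOF and CHMP4C fell in a list where no gene passed the threshold upward, and PTRF lies lowest without passing.

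The 10 annexins share the annotation term calcium-dependent phospholipid binding with 37 other loci, of which 12 were tested. These 12 include ANXA8 and ANXA8L1. Of the 12, 4 passed the threshold, 2 in each direction (33.3%, against 11.4% of all tested loci). SYTL2 and SYTL4 met the filter of 1 FPKM only through the group where they were higher. Nothing is therefore read from this count, and the p-values of SYTL2 and SYTL4 are left out. The set was taken from the table after the annexin results were known. SYTL2 and SYTL4, which encode synaptotagmin-like proteins of vesicle docking, moved in opposite directions. SYTL2 gave 2.37, 2.32 and 2.48 FPKM in the vector libraries, against 0.544, 0.567 and 0.563 FPKM under circ_0005358 (log2 fold change -1.12). The means of SYTL4 were 0.562 FPKM with vector and 1.40 FPKM with circ_0005358 (log2 fold change 0.62). The synaptotagmin gene SYT12 rose from 2.12 to 3.94 FPKM (log2 fold change 0.66, limma adjusted p = 0.00463), and PLA2G4A was the other gene that fell. The extended synaptotagmin gene ESYT2 and the copine gene CPNE3, at means of 39.3 and 46.7 FPKM and of 20.3 and 15.1 FPKM, did not pass (limma adjusted p = 0.129 and 0.661).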

How the data were processed

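PolyA RNA of 6 SiHa libraries, 3 for each plasmid, was measured by sequencing. The authors deposited FPKM per locus. Reads went through Trimmomatic and HISAT2 with build hg19, per the submitters' processing notes. Tool versions, the FPKM program, its annotation and any use of strand were not given in the sources used here. Assembled-transcript identifiers stand on 16797 of the 35544 loci, 9 of the 10 annexins among them. The table holds no coordinates, so positions are from GENCODE 29 on GRCh38.

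The 10295 loci that reached 1 FPKM in 3 or more libraries were tested by limma 3.58.1 (R 4.3.3, two-sided) on log2(FPKM + 1) using its trended prior variance. Benjamini-Hochberg adjustment ran over all of them, and the threshold was 0.05. The depth relative to the deepest library came from the most common value of FPKM times length on loci with 1 transcript, and it gives no counts. A list gene was counted if it had a row with no other protein-coding name. The test was tried on simulated data. Alternatives were other pseudocounts, filters, scalings, variance models, weights, a replicate block, a stricter threshold, summed rows and libraries left out. Adding the pseudogene rows to ANXA2 was chosen after seeing the data.

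The members, lists and tests were chosen with earlier results of these data known. Genes named are the 10 annexins, S100A10 and S100A11, the partner genes past the threshold (up to 6 in a list) and the 3 loci most like each annexin past the threshold. Others were picked after viewing their values. The values of 1 partner gene past the threshold are not reported here.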

Additional observations from a re-analysis of the deposited data

How the results depend on the processing

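The directions of ANXA1, ANXA2, ANXA3, ANXA4, ANXA6, ANXA7 and ANXA11 were the same under every alternative that gave a value. That of ANXA5 turned to 0.0128 without both vector replicate 3 and circ_0005358 replicate 2. S100A10 turned to 0.13 with replicate 3 of both groups left out, and S100A11, at -0.093 to 0.0924 with a single library left out, turned to 0.0924, 0.00299 and 0.011 without vector replicate 1, circ_0005358 replicate 1 and circ_0005358 replicate 2. ANXA6 kept its call in 19 of 20 alternatives, ANXA3 in 18 of 20, ANXA11 in 11 of 20 and ANXA2 in 6 of 21.

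Loci past the threshold numbered 1171, and 591 with no filter on low values, 259 with the replicate block, 198 without both vector replicate 3 and circ_0005358 replicate 2, 85 with replicate 3 of both groups left out, 416 at an adjusted p threshold of 0.01, and 485 to 761 with a single library left out. With libraries rescaled to the same FPKM sum, 539 loci were called higher and 577 lower, against 660 and 511 in the main test. Annexins that rose numbered 3. They numbered 1 with no filter, with the replicate block, without both vector replicate 3 and circ_0005358 replicate 2 and at 0.01, 0 with replicate 3 of both groups left out, and 1 to 2 with a single library left out. Annexins that fell numbered 1, and 0 without either of these pairs of libraries. By limma on the 4 libraries without replicate 3 of both groups, the number of annexins with an unadjusted p under 0.05 was 4. The share of all tested loci under that unadjusted cut-off was not computed, so nothing is read from this number. At the adjusted threshold 0.872% of all tested loci passed in these 4 libraries.

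Partner genes that rose numbered 3. They numbered 1 with no filter and under each rescaling (same FPKM sum, same median, quantile), 0 with the replicate block, with either pair of libraries left out and at 0.01, and 0 to 2 with a single library left out. Partner genes that fell numbered 5. They numbered 1 with no filter and at 0.01, 0 with the replicate block and with either pair left out, and 1 to 3 with a single library left out. Beyond fewer libraries or more loci tested, which some alternatives bring by construction, the cause was not tested.

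Same-numbered libraries were not taken as pairs: their deviations from the group means correlated at 0.0644, 0.0481 and 0.0781, although each library correlated best with its own number. With the replicate block the adjusted p was 0.0339 for ANXA6, 0.0483 for ANXA3, 0.114 for ANXA11 and 0.14 for ANXA2.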
